A study of Mus musculus with 18 samples.

Results

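The epithelial-mesenchymal transition (EMT) genes described here are 9 genes picked by name and matched by Entrez identifier: Cdh1, Cdh2, Epcam, Vim, Fn1, Snai1, Snai2, Zeb1 and Zeb2. They are 9 of the 36528 genes listed in each deposited table, and all 9 were found there and passed the filter on low counts. Polyadenylated RNA of mouse embryonic stem cells was sequenced in 18 libraries, 3 for each of 6 groups. The groups are the RNF2-BAP1 double knockout with 4-hydroxytamoxifen, the BAP1 knockout with 4-hydroxytamoxifen, the same knockout line without the drug (its control), the knock-in BAP1 C91A mutant with 4-hydroxytamoxifen, the same C91A line without the drug (its control), and BAP1 wild type. All are day 4 samples. Per the labels, the drug was used at 100 nM to switch on Cre recombination, and every culture, controls included, also received emricasan, an inhibitor of caspases, the proteases of apoptosis. The labels do not state whether wild-type cells were given the drug, and the series' design text writes the double knockout without the drug where its sample labels carry it. The untreated controls lack both drug and active Cre, so effects of the drug, of Cre and of the allele cannot be told apart. The sources used here name neither the Cre construct nor the number of clones behind each line.

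BAP1 is a deubiquitinase that takes ubiquitin off histone H2A, C91 is its catalytic cysteine, and RNF2 is a ubiquitin ligase of Polycomb repressive complex 1 that puts the mark on. Libraries held 8.11 to 23.0 megacounts (M). Levels are given as CPM, counts per M (mega) counts after scaling for library composition, and changes as log2 fold changes with standard error (SE), both within a gene. Levels of different genes are compared only in the authors' normalized RPKM, which divides by gene length. A change is called at an adjusted p under 0.05 over 16875 tested genes. Nothing in the labels says that the replicates were separate cultures, so the p-values measure only the spread between these libraries, which was small (coefficient of variation 4.5%). In bulk RNA, more cells with a transcript and more transcript per cell cannot be told apart. Bap1 itself stood at 153 ± 11.7 CPM in the double knockout, 150 ± 2.30 in the knockout and 169 ± 1.53 in its untreated line, and at 165 ± 1.66 in the C91A mutant, 88.9 ± 4.57 in its untreated line and 178 ± 6.64 in wild type (SD, n = 3). Rnf2 stood at 74.5 ± 3.52 CPM in the double knockout and 123 ± 7.61 in the knockout. Counts summed over a whole gene still take in shortened or point-mutated transcripts and check the genotypes only in part. None of the 12 stem cell markers was at 0 in any group.

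In an EMT, epithelial cells loosen their junctions and gain motile, matrix-rich properties. Its best known sign is a cadherin switch, in which E-cadherin (Cdh1), the adhesion protein of epithelia, gives way to N-cadherin (Cdh2), found on neural and mesenchymal cells. The SNAI and ZEB zinc-finger repressors bind E-box sequences in epithelial promoters, that of Cdh1 included, and vimentin and fibronectin mark the mesenchymal state. Mouse embryonic stem cells are epithelium-like colonies that depend on E-cadherin for cohesion, and cells leaving pluripotency in the gastrulating embryo pass through an EMT.

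The 2 cadherin transcripts did not trade places in the BAP1 knockout or the C91A mutant. Both rose in the BAP1 knockout and in the C91A mutant against their untreated lines. Cdh2 rose several-fold from a low level, and Cdh1 rose by less than a log2 unit from a high level. The double knockout had the lowest Cdh1 of all 6 groups and a Cdh2 level between those of the knockout and wild type.

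Cdh1 (Entrez 12550, chr8:106603350-106670247 of GRCm38.p6, plus strand) had 707, 742 and 735 CPM in the double knockout libraries. It had 1190, 1184 and 1187 CPM in the BAP1 knockout, against 985, 972 and 1005 CPM in its untreated line. In the C91A mutant it had 1397, 1429 and 1466 CPM, against 1034, 1093 and 1041 CPM in the untreated C91A line, and wild type had 1350, 1361 and 1326 CPM. No 2 of the 6 groups overlapped. In order of level, the C91A mutant stood highest, followed by wild type, the BAP1 knockout, the untreated C91A line, the untreated knockout line and the double knockout. The log2 fold change was 0.27 (SE 0.04, adjusted p = 2.9e-08) in the knockout and 0.44 (SE 0.04, adjusted p = 9e-14) in the C91A mutant. Scaled by library totals alone, which puts the median gene at -0.16 in the knockout comparison (-0.01 with the scaling used), the knockout value was 0.11 and still called (adjusted p = 0.0042). Both untreated lines stood below wild type for Cdh1 (-0.45 in the knockout line and -0.35 in the C91A line, SE 0.04 each), and so did the knockout (-0.18, adjusted p = 3.1e-05).

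Cdh2 (Entrez 12558, on the minus strand of chromosome 18) had 15.8, 14.6 and 15.2 CPM in the double knockout. It had 30.4, 30.3 and 32.8 CPM in the BAP1 knockout, against 4.97, 5.32 and 4.85 CPM in its untreated line. Libraries of the C91A mutant had 25.8, 28.4 and 27.0 CPM, against 7.93, 8.25 and 6.64 CPM in its untreated line, and wild type had 5.06, 5.91 and 5.77 CPM. The 3 drug-treated groups lay above all other libraries, and of neighbouring groups only wild type and the untreated knockout line overlapped. The change was 2.63 (SE 0.10, adjusted p = 1.8e-24), or 6.19-fold, in the knockout and 1.82 (SE 0.10, adjusted p = 9.9e-20), or 3.53-fold, in the C91A mutant. The untreated C91A line already stood above wild type by 0.45 (SE 0.11, adjusted p = 0.0024).

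**Figure D1:**
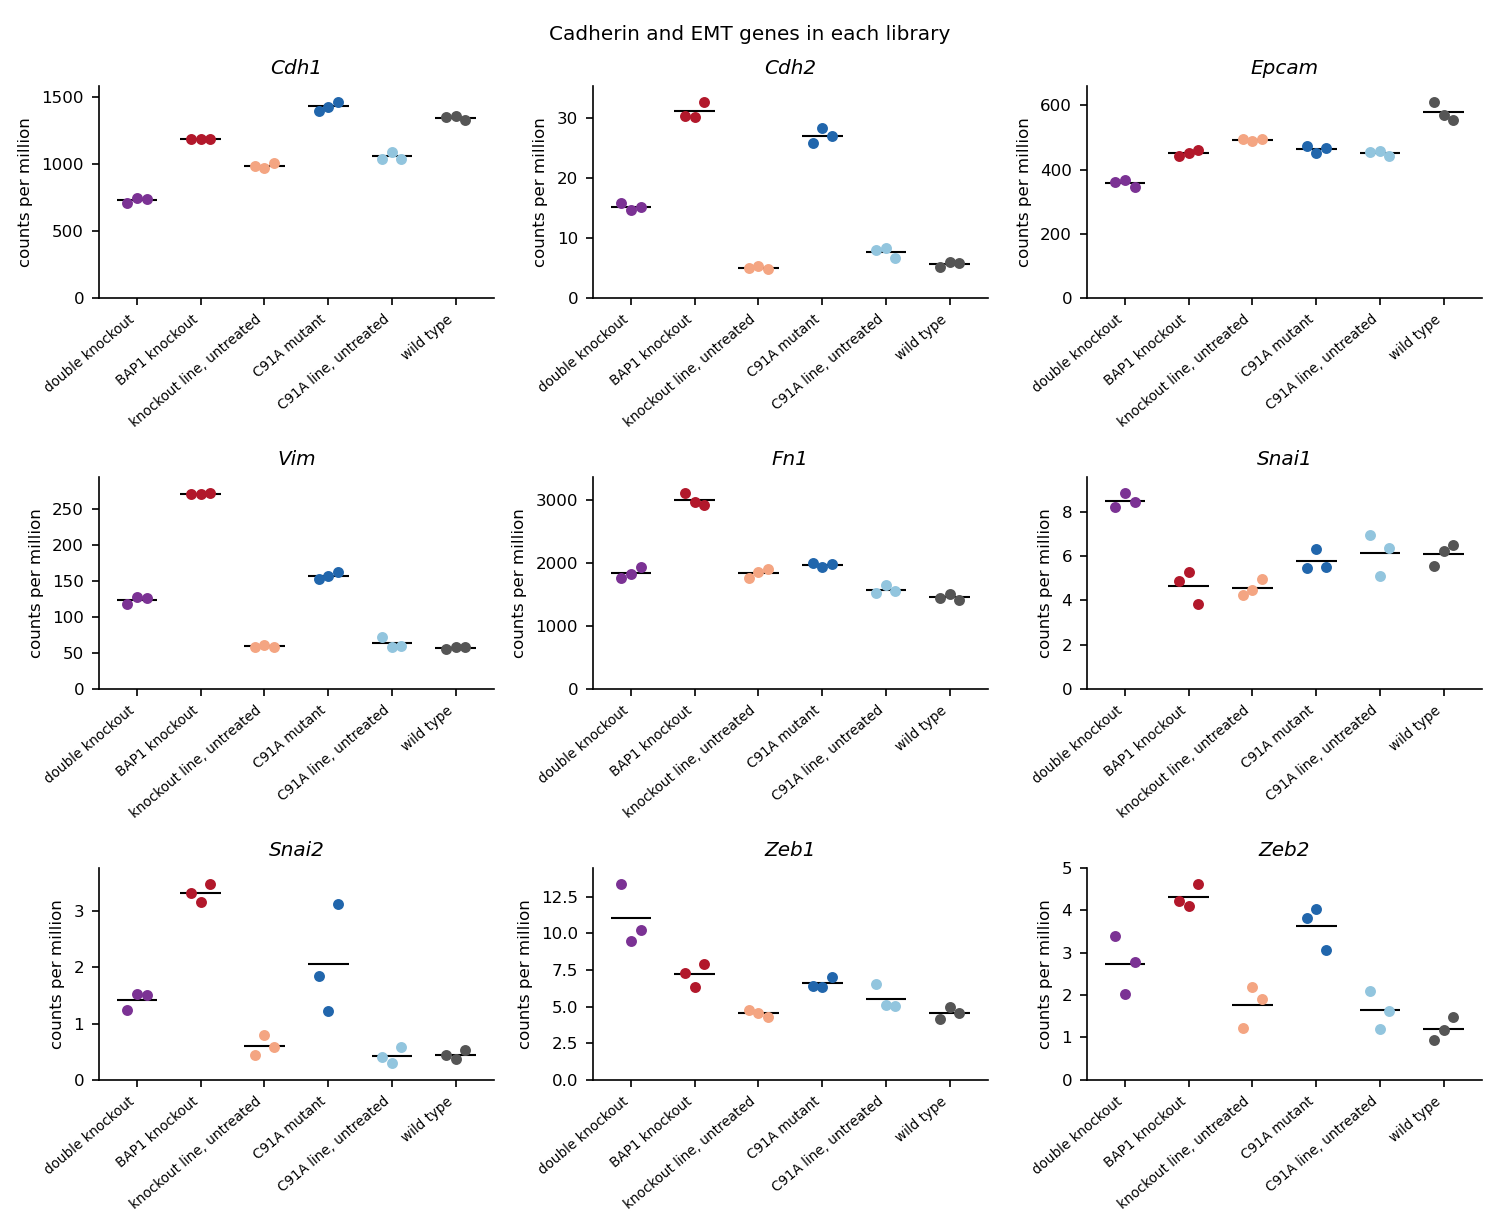
CPM (vertical axis, from 0) of each of the 9 genes in the 18 libraries, in 6 groups along the horizontal axis. Points are libraries and bars are group means of 3. Cdh2, Vim and Snai2 are highest in the BAP1 knockout, Snai1 and Zeb1 in the double knockout, and Cdh1 and Epcam lowest in the double knockout.

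Per gene length, E-cadherin transcripts remained far in excess in every library. Cdh1 was at 159 ± 4.28 normalized RPKM in the double knockout, 260 ± 0.606 in the knockout, 215 ± 3.6 in its untreated line, 311 ± 9.69 in the C91A mutant, 231 ± 6.83 in its untreated line and 293 ± 3.48 in wild type (SD, n = 3). Cdh2 was at 1.5 ± 0.0562, 3.08 ± 0.144, 0.497 ± 0.0241, 2.66 ± 0.138, 0.751 ± 0.0828 and 0.549 ± 0.0455 normalized RPKM in the same groups. Cdh1 thus exceeded Cdh2 by 106 times in the double knockout, 84.4 times in the knockout and 434 times in its untreated line. The excess was 117 times in the C91A mutant, 310 times in its untreated line and 536 times in wild type.

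Against wild type, the balance between the cadherins was shifted toward Cdh2 in each drug-treated group. The log2 ratio of Cdh2 to Cdh1 counts averaged -5.25 ± 0.06 in the knockout and -7.61 ± 0.09 in its untreated line (SD, n = 3), a difference of 2.36. It averaged -5.72 ± 0.06 in the C91A mutant and -7.12 ± 0.15 in its untreated line, a difference of 1.4. It averaged -5.58 ± 0.09 in the double knockout, a difference of -0.33 from the knockout. The libraries did not overlap in any of these 3 comparisons, and each had p = 0.1 in a 2-sided exact permutation test, the smallest p that 3 against 3 can give. In wild type the ratio averaged -7.92 ± 0.12, and the double knockout stood 2.33 above that. The untreated knockout and C91A lines also lay above wild type without overlap, by 0.30 and 0.79.

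**Figure D2:**
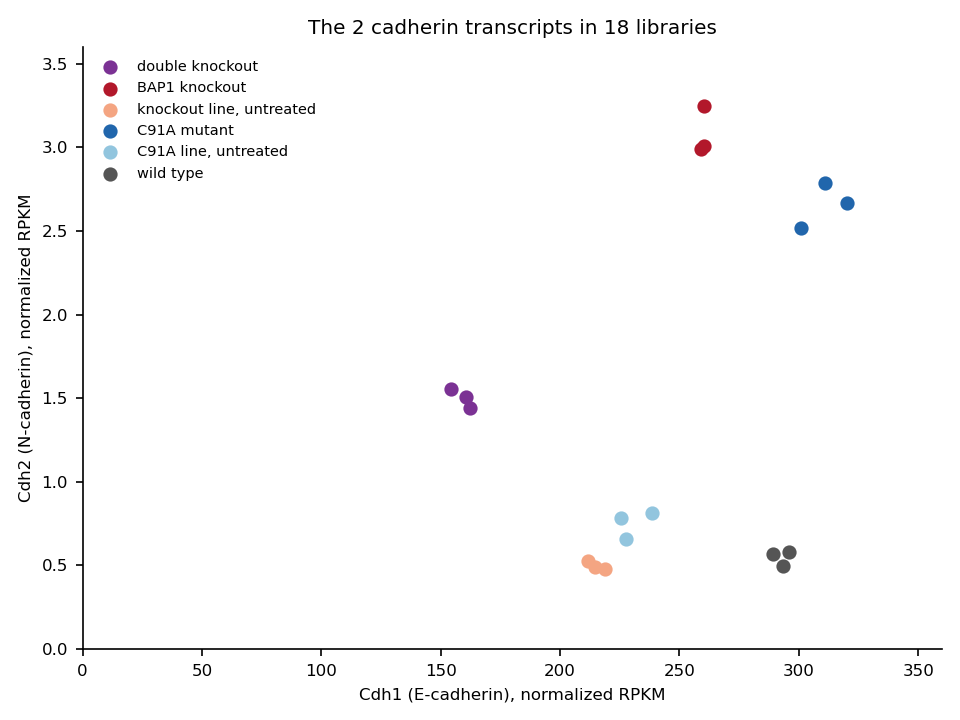
Cdh2 against Cdh1 in normalized RPKM (both axes linear, from 0), 1 point per library, coloured by group. The knockout and C91A mutant lie above and to the right of their untreated lines, and the double knockout lies at the lowest Cdh1, 159 normalized RPKM on average.

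Epcam (Entrez 17075, chr17:87635979-87651127, plus strand) encodes an adhesion molecule of epithelia that is also a surface marker of pluripotent cells. It had 360, 369 and 347 CPM in the double knockout. It had 443, 451 and 460 CPM in the BAP1 knockout, against 496, 491 and 495 CPM in its untreated line. The C91A mutant had 474, 452 and 469 CPM, against 454, 459 and 442 CPM in its untreated line, and wild type had 612, 571 and 554 CPM. Wild type lay above and the double knockout below all other libraries. The knockout fell slightly against its untreated line (-0.13, SE 0.04, adjusted p = 0.0053). The C91A mutant stood at 0.04 (95% interval -0.04 to 0.12, adjusted p = 0.38) with overlapping libraries. Under library totals alone the 2 values were -0.28 (called) and -0.06 (not called).

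Windows of 250 bases upstream of the annotated start were in the RefSeq promoter table (GRCm38.p6) for 4 of the 9 genes: Epcam, Vim, Snai1 and Zeb2. Those of Epcam, Vim and Snai1 are shown, 5′ to 3′, for an epithelial gene, a mesenchymal gene and a repressor whose transcripts moved differently. Capitals mark CACCTG or its reverse complement CAGGTG, the E-box core that SNAI and ZEB proteins recognise, searched on both strands. Epcam holds 2 such matches, 187 and 19 bases before the start, and Snai1 holds 1, 126 bases before it. The Vim window and those of the annotated Zeb2 starts hold none. Of all 32851 windows of this length, 17.2% hold a match and 2.06% hold at least 2. A match is a description of the letters, not a binding site.
Epcam, chr17:87635729-87635978, plus strand: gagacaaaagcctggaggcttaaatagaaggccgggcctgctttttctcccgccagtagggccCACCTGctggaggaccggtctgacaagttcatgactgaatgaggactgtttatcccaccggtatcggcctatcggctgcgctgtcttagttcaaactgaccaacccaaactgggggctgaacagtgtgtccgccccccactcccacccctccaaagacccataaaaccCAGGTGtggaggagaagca
Vim, chr2:13574061-13574310, plus strand: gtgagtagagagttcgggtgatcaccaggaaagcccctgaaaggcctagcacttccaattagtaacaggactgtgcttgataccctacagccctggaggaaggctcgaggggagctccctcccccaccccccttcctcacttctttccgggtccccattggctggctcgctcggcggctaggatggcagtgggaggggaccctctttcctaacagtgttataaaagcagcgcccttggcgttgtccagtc
Snai1, chr2:167537945-167538194, plus strand: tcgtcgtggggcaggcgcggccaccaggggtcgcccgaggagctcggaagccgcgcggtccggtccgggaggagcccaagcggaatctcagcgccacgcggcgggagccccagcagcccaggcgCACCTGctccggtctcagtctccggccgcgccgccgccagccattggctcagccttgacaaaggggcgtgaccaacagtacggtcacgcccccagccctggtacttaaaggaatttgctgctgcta

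Both mesenchymal members rose in both mutants, Vim several-fold and Fn1 by less than a log2 unit. The 4 highest groups stood in the same order for Vim as for Cdh2. Vim (Entrez 22352, chr2:13574311-13582826, plus strand) encodes vimentin, an intermediate filament protein of mesenchymal cells. It had 117, 127 and 125 CPM in the double knockout. It had 270, 270 and 272 CPM in the BAP1 knockout, against 58.3, 60.1 and 57.7 CPM in its untreated line. Libraries of the C91A mutant had 152, 156 and 161 CPM, against 71.2, 58.1 and 58.9 CPM in its untreated line, and wild type had 54.6, 57.7 and 57.5 CPM. The drug-treated groups did not overlap each other or any untreated library. The change was 2.21 (SE 0.05, adjusted p = 1.8e-30), or 4.61-fold, in the knockout and 1.33 (SE 0.06, adjusted p = 6.7e-23), or 2.51-fold, in the C91A mutant. The untreated lines stood at 0.05 (knockout line, adjusted p = 0.5) and 0.14 (C91A line, adjusted p = 0.062) against wild type.

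Fn1 (Entrez 14268, chr1:71585473-71653280, minus strand) encodes fibronectin, a matrix protein already abundant in these cells. It had 1754, 1824 and 1929 CPM in the double knockout. It had 3111, 2970 and 2920 CPM in the BAP1 knockout, against 1757, 1857 and 1894 CPM in its untreated line. The C91A mutant had 1991, 1933 and 1976 CPM, against 1521, 1643 and 1551 CPM in its untreated line, and wild type had 1432, 1498 and 1414 CPM. The knockout stood apart from all other groups, while the double knockout overlapped the untreated knockout line. The change was 0.71 (SE 0.04, adjusted p = 4.2e-19) in the knockout and 0.32 (SE 0.04, adjusted p = 3.5e-09) in the C91A mutant. In normalized RPKM, Fn1 was at 344 ± 11 in the knockout and 210 ± 8.11 in its untreated line, and Vim at 143 ± 0.732 and 30.8 ± 0.673 (SD, n = 3). Fn1 was thus above Cdh1 (260) in the knockout, and Cdh2 (3.08) far below both.

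The 4 repressor transcripts were all scarce, between 0.119 and 5.18 normalized RPKM as group means, and they did not move together. Snai2 and Zeb2 rose in both the knockout and the C91A mutant, Zeb1 rose in the knockout, and Snai1 passed the test in neither.

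Snai1 (Entrez 20613, chr2:167538195-167542814, plus strand), which encodes SNAIL, had 8.24, 8.88 and 8.46 CPM in the double knockout. It had 4.86, 5.29 and 3.85 CPM in the BAP1 knockout, against 4.26, 4.48 and 4.96 CPM in its untreated line. Libraries of the C91A mutant had 5.46, 6.34 and 5.53 CPM, against 6.99, 5.10 and 6.38 CPM in its untreated line, and wild type had 5.55, 6.23 and 6.53 CPM. The double knockout lay above all other libraries, and mutants overlapped their untreated lines. The difference was -0.01 in the knockout (95% interval -0.34 to 0.32, adjusted p = 0.96) and -0.07 in the C91A mutant (95% interval -0.36 to 0.22, adjusted p = 0.71).

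Snai2 (Entrez 20583, chr16:14705852-14709395, plus strand) encodes SLUG, a close relative of SNAIL, and was the scarcest by count. It had 19, 21 and 37 counts (1.24, 1.52 and 1.51 CPM) in the double knockout. It had 37, 24 and 58 counts (3.33, 3.17 and 3.49 CPM) in the BAP1 knockout, against 10, 17 and 11 counts (0.440, 0.793 and 0.580 CPM) in its untreated line. The C91A mutant had 26, 18 and 57 counts (1.84, 1.23 and 3.12 CPM), against 6, 7 and 9 counts (0.407, 0.298 and 0.586 CPM) in its untreated line, and wild type had 8, 8 and 11 counts. Each drug-treated library lay above each of the others, and the C91A mutant libraries spread widest. The change was 2.46 (SE 0.31, adjusted p = 4.9e-09) in the knockout and 2.34 (SE 0.36, adjusted p = 4.5e-07) in the C91A mutant. Snai2 passed the filter on low counts only through the 3 drug-treated groups: 0 of 3 wild-type, 2 of 3 untreated knockout line and 1 of 3 untreated C91A line libraries reached the 0.553 CPM it asks for. With no filter the same calls were made.

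Zeb1 (Entrez 21417, on the plus strand of chromosome 18) had 13.4, 9.46 and 10.2 CPM in the double knockout. It had 7.29, 6.34 and 7.94 CPM in the BAP1 knockout, against 4.79, 4.57 and 4.27 CPM in its untreated line. Libraries of the C91A mutant had 6.39, 6.34 and 7.01 CPM, against 6.51, 5.10 and 5.01 CPM in its untreated line, and wild type had 4.12, 4.97 and 4.58 CPM. The double knockout was highest with no overlap, and the C91A mutant overlapped its untreated line. The change was 0.69 (SE 0.15, adjusted p = 0.00017) in the knockout. In the C91A mutant it was 0.27 (SE 0.15, 95% interval -0.03 to 0.56, adjusted p = 0.13), and without replicate 1 of the untreated C91A line it was 0.38 and called (adjusted p = 0.043).

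Zeb2 (Entrez 24136, chr2:44983512-45117442, minus strand) had 3.40, 2.02 and 2.78 CPM in the double knockout. It had 4.23, 4.10 and 4.63 CPM in the BAP1 knockout, against 1.23, 2.19 and 1.90 CPM in its untreated line. The C91A mutant had 3.83, 4.02 and 3.07 CPM, against 2.10, 1.19 and 1.63 CPM in its untreated line, and wild type had 0.935, 1.17 and 1.48 CPM. Both mutants lay above their own untreated lines, and the double knockout overlapped the C91A mutant and both untreated lines. The change was 1.31 (SE 0.23, adjusted p = 4.7e-06) in the knockout and 1.19 (SE 0.24, adjusted p = 4.8e-05) in the C91A mutant. Genes annotated across Zeb1 (Gm10125) and Zeb2 (Zeb2os and Mir5129) held 3, 31 and 14 counts over all 18 libraries, and the sources used here do not state whether counting was stranded.

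**Figure D3:**
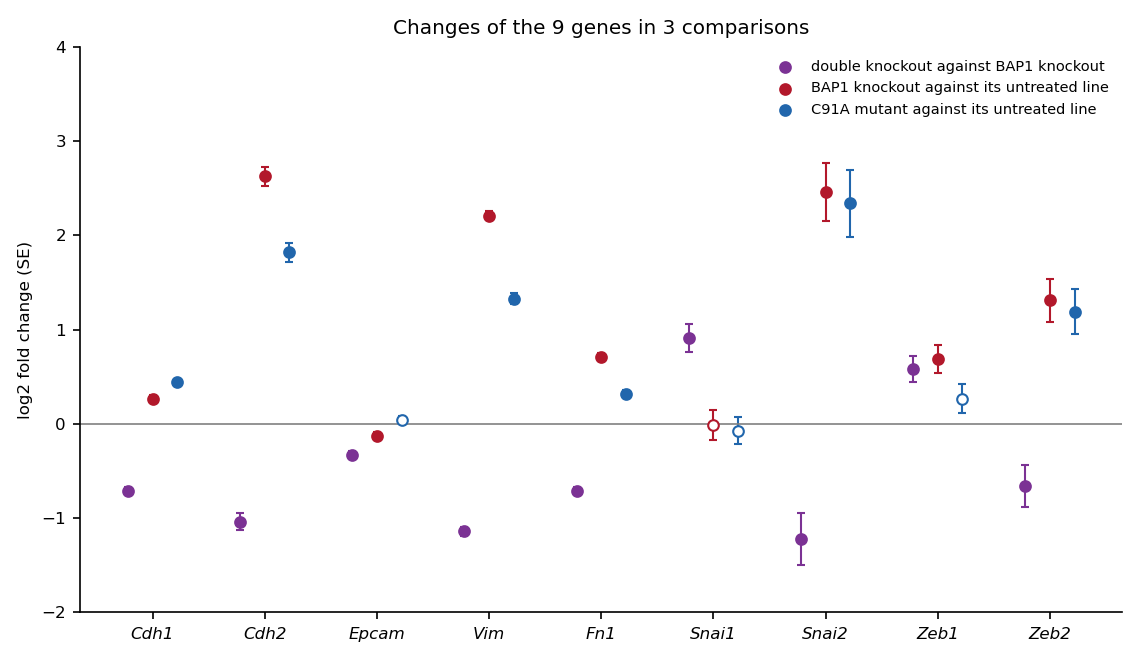
Log2 fold change (vertical axis) with SE of the 9 genes in the double knockout against the BAP1 knockout and in the knockout and C91A mutant against their untreated lines. Filled points are called at adjusted p under 0.05 and open points are not. Cdh1, Cdh2, Vim, Fn1, Snai2 and Zeb2 are up in both mutants and down in the double knockout against the knockout. Snai1 is called in the double knockout comparison alone of these 3.

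Counted together, 7 of the 9 genes were higher and 1 (Epcam) lower in the BAP1 knockout than in its untreated line, where 61.6% of all tested genes were called. In the C91A mutant 6 were higher and none lower, where 55.0% of tested genes were called. Snai2, which could pass the filter only through the treated groups, is 1 of the higher genes in each count. With such a share of all genes called, the counts say little about these genes as a set. By size of change, Cdh2 was the 276th of 16875 tested genes by size of change in the knockout and the 482nd in the C91A mutant. Vim was the 520th and the 1171st, while Cdh1 was the 10472nd and the 6196th and Epcam the 13595th and the 15496th.

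The knockout effect was tested against the C91A effect in an interaction contrast over all genes, in which 25.9% of tested genes were called. For 5 of the 9 genes the 2 effects differed, each taken from its own untreated line. Cdh2 (0.81, SE 0.14, adjusted p = 3.2e-05), Vim (0.88, SE 0.08, adjusted p = 1.4e-11) and Fn1 (0.39, SE 0.06, adjusted p = 1e-06) rose further in the knockout. For Cdh2 the starting levels were unlike, at -0.15 in the untreated knockout line and 0.45 in the untreated C91A line against wild type. After treatment Cdh2 stood at 2.48 and 2.27 against wild type, and Vim at 2.26 and 1.47. Differences between lines and between alleles cannot be told apart here. Cdh1 (-0.17, SE 0.05, adjusted p = 0.0096) rose less in the knockout, and Epcam differed by -0.17 (SE 0.06, adjusted p = 0.022). For the 4 repressors the difference did not pass the test, at 0.06 for Snai1 (95% interval -0.38 to 0.50), 0.13 for Snai2 (-0.97 to 1.22), 0.42 for Zeb1 (-0.01 to 0.85) and 0.12 for Zeb2 (-0.56 to 0.80). Without replicate 3 of the C91A mutant, Cdh1 (-0.14, adjusted p = 0.056) and Epcam (-0.15, adjusted p = 0.069) lost their calls. Epcam also lost its call without replicate 1 of the knockout (-0.16, adjusted p = 0.057) or replicate 3 of the untreated C91A line (-0.16, adjusted p = 0.062).

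All 9 genes differed between the double knockout and the BAP1 knockout, where 63.2% of tested genes were called, with 2 higher and 7 lower. This comparison uses the same knockout libraries as the one against the untreated line. Vim fell by 1.14 on the log2 scale (SE 0.05, adjusted p = 7e-22), Cdh2 by 1.04 (SE 0.09, adjusted p = 1.5e-13), Snai2 by 1.22 (SE 0.28, adjusted p = 0.00018) and Fn1 by 0.71 (SE 0.04, adjusted p = 3.9e-19). The epithelial genes were lower too, Cdh1 with a change of -0.71 (SE 0.04, adjusted p = 2.8e-20) and Epcam with -0.33 (SE 0.04, adjusted p = 3e-09; -0.13 under library totals alone, still called). Snai1 (0.91, SE 0.15, adjusted p = 1.9e-06) and Zeb1 (0.58, SE 0.14, adjusted p = 0.00037) were higher. Zeb2 was lower (-0.66, SE 0.22, adjusted p = 0.0083), a call that was lost under library totals alone (-0.46, adjusted p = 0.065), without replicate 2 of the double knockout (-0.52, adjusted p = 0.05) and without replicate 3 of the knockout (-0.60, adjusted p = 0.052).

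Against wild type, the double knockout held less Cdh1 and Epcam and more of the other 7 transcripts, where 53.3% of tested genes were called. Cdh1 stood at -0.89 (SE 0.04, adjusted p = 1.8e-23), or 0.54-fold. Epcam was lower by 0.69 on the log2 scale (SE 0.04, adjusted p = 2.4e-18). Cdh2 stood at 1.44 (SE 0.10), Vim at 1.12 (SE 0.06) and Fn1 at 0.34 (SE 0.04). All 4 repressors were higher, Snai1 by 0.48 (SE 0.13, adjusted p = 0.0021), Snai2 by 1.68 (SE 0.36, adjusted p = 0.00012), Zeb1 by 1.26 (SE 0.14, adjusted p = 1.6e-10) and Zeb2 by 1.19 (SE 0.25, adjusted p = 9.5e-05). Snai2 could pass the filter on low counts only through the drug-treated groups, so neither the 7 transcripts nor the 4 repressors draw support from it. This comparison shares the double knockout libraries with the one against the knockout, and no untreated double knockout line was analysed here.

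The single mutants against wild type gave 6 genes higher and 3 lower for the BAP1 knockout, where 62.9% of tested genes were called, and 7 higher and 1 lower for the C91A mutant, where 58.3% were called. Snai2, which could pass the filter only through the drug-treated groups, is 1 of the higher genes in both, and neither count draws support from it. Cdh2 stood at 2.48 (SE 0.10) in the knockout and 2.27 (SE 0.10) in the C91A mutant. Cdh1 was 0.18 below wild type in the knockout, and in the C91A mutant it was 0.09 above (SE 0.04, adjusted p = 0.031). That last call was lost under library totals alone (0.02), with no filter (0.08), with only the groups compared in the fit (0.09, adjusted p = 0.052) and without any of 4 single libraries in turn (0.06 to 0.09). Snai1 was lower than wild type in the knockout (-0.44, SE 0.16, adjusted p = 0.015), a call lost without replicate 3 of the knockout (-0.28, adjusted p = 0.19) or replicate 3 of wild type (-0.39, adjusted p = 0.054).

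Without the drug the lines already differed from wild type. In the untreated knockout line 1 gene was higher and 3 lower, where 39.3% of tested genes were called, and in the untreated C91A line 2 were higher and 2 lower, where 27.6% were called. Cdh1 and Epcam were lower in both. Epcam stood at -0.23 (SE 0.04, adjusted p = 9.2e-06) in the knockout line and -0.36 (SE 0.04, adjusted p = 2.8e-09) in the C91A line. Fn1 was higher in both, by 0.34 (SE 0.04, adjusted p = 2e-09) and 0.12 (SE 0.04, adjusted p = 0.02). The Fn1 call in the C91A line was lost without replicate 1 (0.11) or 3 (0.10) of wild type or replicate 2 of that line (0.09). Snai1 was lower in the untreated knockout line (-0.43, SE 0.14, adjusted p = 0.013), a call lost without replicate 1 of that line (-0.38) or replicate 3 of wild type (-0.38).

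Counts over the lists that follow are to be read beside the shares of all tested genes that rose and fell, 31.3% and 30.3% in the knockout and 28.6% and 26.4% in the C91A mutant against their untreated lines, and 32.6% and 30.6% that were higher and lower in the double knockout than in the knockout. Against wild type the shares higher and lower were 26.2% and 27.1% in the double knockout. They were 30.9% and 31.9% in the knockout and 18.5% and 20.8% in its untreated line. In the C91A mutant they were 29.9% and 28.5%, and in its untreated line 13.4% and 14.2%. For the knockout effect minus the C91A effect they were 12.2% and 13.8%. Around the members, 43 epithelial genes (claudins, desmosome and polarity proteins, simple keratins and the factors that maintain them) moved in mixed directions. In the BAP1 knockout 18 rose and 16 fell, with a median of 0.04 beside -0.01 for all tested genes. Under library totals alone, 15 rose and 20 fell. The desmosomal cadherin Dsc2 rose by 1.23 (SE 0.10, 19.6 CPM in the knockout and 8.31 in its untreated line) and the keratin Krt18 by 1.01 (SE 0.06, 268 and 133 CPM). Grhl2, a transcription factor that sustains epithelial junctions and Cdh1 expression, was among the lowest at -1.49 (SE 0.08, 14.3 and 40.8 CPM), with the desmosomal protein gene Pkp3 at -1.18 (SE 0.08). In the C91A mutant 30 rose and 7 fell (median 0.44), with Dsc2 (1.66, SE 0.09) and Dsp (1.46, SE 0.06), the gene of a desmosomal plaque protein, among the highest. The knockout effect differed from the C91A effect for 29 of the 43, and it was the lower of the pair for 27 of them.

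In the double knockout 27 of the 43 epithelial genes were lower and 10 higher than in the knockout (median -0.48; 23 lower and 14 higher under library totals alone), and 35 were lower and 3 higher than in wild type (median -0.61). Against wild type 26 were also lower and 7 higher in the knockout (median -0.27), and 30 were lower and 4 higher in its untreated line (median -0.34). The C91A mutant went the other way, with 8 lower and 27 higher than in wild type (median 0.30). In its untreated line 11 were lower and 8 higher (median -0.06). The tight junction genes Cldn4 (-1.44, SE 0.05) and Cldn6 (-1.06, SE 0.06) were among the lowest in the double knockout against the knockout. Grhl2 (1.22, SE 0.08) and Pkp3 (0.87, SE 0.09) were among the highest there, with 33.8 and 36.7 CPM in the double knockout and 14.3 and 19.9 CPM in the knockout.

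Of 37 mesenchymal genes, 35 could be tested. In the BAP1 knockout 24 rose and 2 fell (median 0.63; 20 and 4 under library totals alone), and in the C91A mutant 28 rose and 1 fell (median 1.01). Against wild type the picture differed: 13 were higher and 14 lower in the knockout (median -0.18), and 27 of the 35 were already lower in its untreated line (median -0.53). In the C91A mutant 26 were higher and 7 lower than in wild type (median 0.84), with 9 higher and 16 lower in its untreated line (median -0.24). The knockout effect was above the C91A effect for 1 of the 35 and below it for 15 (median -0.41), the other way from Cdh2, Vim and Fn1. Acta2, which encodes smooth muscle actin, stood at 44.9 CPM in the knockout and 4.81 in its untreated line (3.22, SE 0.09), and at 97.0 CPM in the C91A mutant and 9.29 in its untreated line (3.38, SE 0.07). Tagln, which encodes the actin-binding protein transgelin, stood at 300 and 62.0 CPM (2.28, SE 0.06) and at 490 and 90.9 CPM (2.43, SE 0.05) in the same pairs. Thbs1, which encodes the matrix protein thrombospondin, rose by 1.92 (SE 0.06) in the knockout and 2.73 (SE 0.06) in the C91A mutant. The integrin gene Itgb3 fell in both (-0.42, SE 0.14, and -0.51, SE 0.11). The matrix protease gene Mmp14 fell in the knockout (-0.39, SE 0.08) and rose in the C91A mutant (0.94, SE 0.07).

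The double knockout split the mesenchymal list, with 21 genes higher and 9 lower than in the knockout (median 0.58; 26 and 6 under library totals alone). The contractile genes Tagln (-1.99, SE 0.06), Cnn1 (-1.24, SE 0.14) and Tpm1 (-1.01, SE 0.04) were among the lowest. Tagln stood at 75.5 CPM there and 73.7 CPM in wild type. Acta2 did not pass the test between the double knockout and the knockout (0.13, SE 0.06, adjusted p = 0.075), at 49.1 and 44.9 CPM. The growth factor receptor gene Pdgfra (2.43, SE 0.24), the collagen gene Col3a1 (2.05, SE 0.29) and S100a4 (1.76, SE 0.35) were among the highest, all at low levels of 6.11, 4.05 and 2.72 CPM in the double knockout. Pdgfra did not pass the test between the double knockout and wild type (0.22, SE 0.16, adjusted p = 0.26), which held 5.25 CPM. Col3a1 (2.55, SE 0.27) and S100a4 (1.18, SE 0.29) were above wild type there. Of the 35 tested mesenchymal genes, 24 were higher and 6 lower in the double knockout than in wild type (median 0.53).

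**Figure D4:**
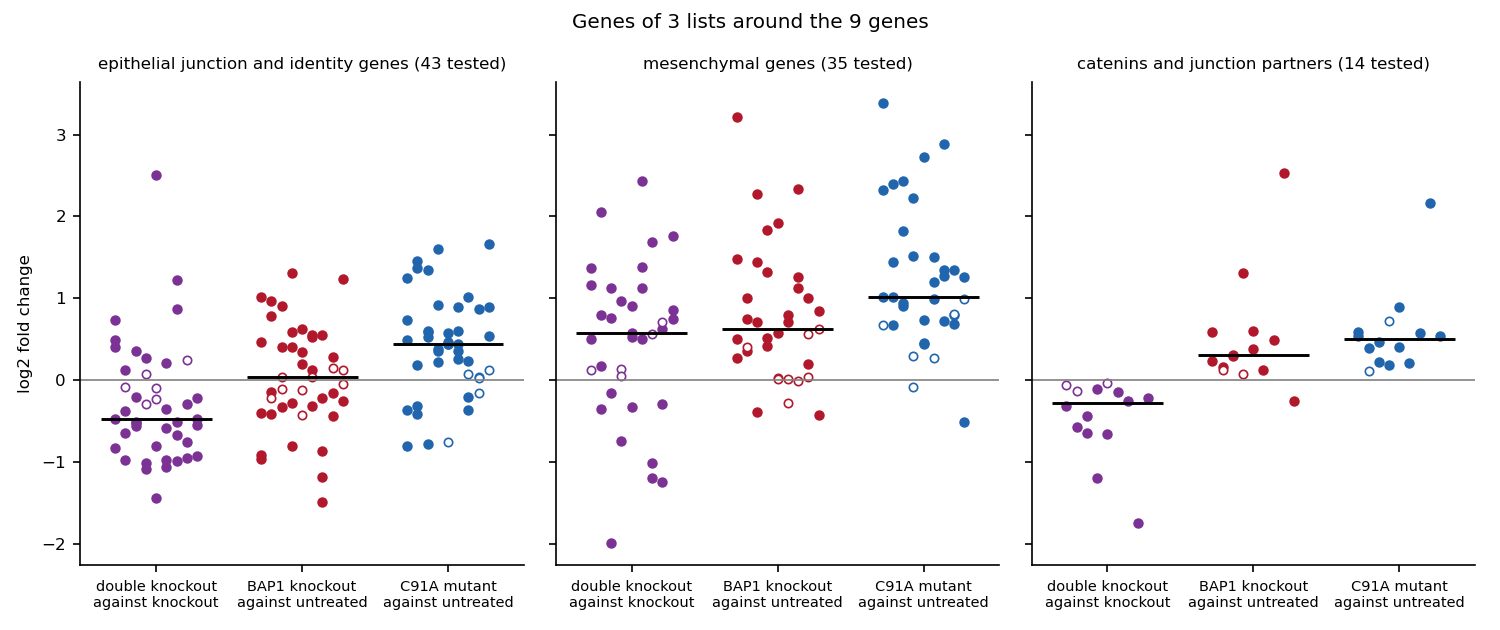
Log2 fold change (vertical axis) of the epithelial (43), mesenchymal (35 tested) and catenin (14) genes in the double knockout against the BAP1 knockout and in the knockout and C91A mutant against their untreated lines. Points are genes, open where not called, and bars are medians. Each list has its own panel. For the double knockout against the knockout, the epithelial and catenin medians are below 0 (-0.48 and -0.29) and the mesenchymal one is above (0.58).

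Catenins link cadherins to actin, and of 14 catenins and junction partners 11 rose and 1 fell in the BAP1 knockout (median 0.31), 12 rose in the C91A mutant (median 0.50), and 11 were lower in the double knockout than in the knockout (median -0.29). Under library totals alone the knockout count was 7 rising and 1 falling and the double knockout count 1 higher and 7 lower. Against wild type 4 were higher and 5 lower in the double knockout (median 0.03). The counts were 10 and 1 in the knockout (median 0.22) and 11 and 0 in the C91A mutant (median 0.48). Ctnnd2, the delta-catenin of neural cells, stood at 12.7 CPM in the knockout and 2.22 in its untreated line (2.53, SE 0.16), at 10.6 CPM in the C91A mutant and 2.33 in its untreated line (2.17, SE 0.16), and at 3.80 CPM in the double knockout. Vcl, which encodes vinculin, rose by 0.60 (SE 0.05) and 0.89 (SE 0.05) in the mutants and was lower in the double knockout (-0.66, SE 0.05). Jup, which encodes plakoglobin and is also in the epithelial list, fell in the knockout (-0.26, SE 0.05) and rose in the C91A mutant (0.54, SE 0.05).

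Other cadherins moved both ways. Of 26 further family members 17 could be tested, and 8 rose and 4 fell in the knockout (7 and 6 under library totals alone) and 9 rose and 3 fell in the C91A mutant. The anchored cadherin gene Cdh13 rose by 1.47 (SE 0.24) and 1.85 (SE 0.27), Cdh6 by 1.70 (SE 0.39) and 1.51 (SE 0.30), and Cdh11, a mesenchymal cadherin, by 1.12 (SE 0.36) and 1.27 (SE 0.47), none above 4 CPM. Both untreated lines held less Cdh11 than wild type (-1.38, SE 0.31, and -2.51, SE 0.38). Against wild type (1.41 CPM), Cdh11 stood at -0.27 (SE 0.31, adjusted p = 0.46) in the knockout. In the C91A mutant it was below wild type (-1.24, SE 0.33, adjusted p = 0.0013). P-cadherin (Cdh3) fell in both (-0.41, SE 0.05 each), at 74.6 CPM in the knockout and 99.3 in its untreated line. Celsr3, a planar polarity cadherin of neurons, fell in both (-2.10, SE 0.10, and -1.48, SE 0.10) and was higher in the double knockout than in the knockout (1.34, SE 0.10).

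TGF-beta is a classical inducer of EMT. Of 13 genes of its core pathway 10 rose and 1 fell in the knockout (median 0.58), 11 rose in the C91A mutant (median 0.45), and 4 were higher and 5 lower in the double knockout than in the knockout. The ligand gene Tgfb2 stood at 8.0 CPM in the knockout and 1.20 in its untreated line (2.70, SE 0.20), and at 13.8 CPM in the C91A mutant and 2.27 in its untreated line (2.58, SE 0.16), with 4.14 CPM in the double knockout. The receptor gene Tgfbr2 rose in the C91A mutant (1.10, SE 0.13) and stood at -0.01 (SE 0.19, adjusted p = 0.95) in the knockout. The signal carrier Smad3 rose in the knockout (0.74, SE 0.07), and the inhibitor Smad7 fell there (-0.79, SE 0.06).

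Of 21 other transcription factors linked to EMT, 12 rose and 5 fell in the knockout (median 0.69), 9 rose and 5 fell in the C91A mutant (median 0.61), and 12 were higher and 2 lower in the double knockout than in the knockout. Against wild type 14 were higher and 1 lower in the double knockout (median 0.57). The counts were 9 and 2 in the knockout (median 0.20) and 12 and 4 in the C91A mutant (median 0.35). Tcf12, an E-protein that binds the same kind of E-box, stood at 190 CPM in the knockout and 61.0 in its untreated line (1.64, SE 0.05), and at 71.1 CPM in the double knockout. Id2, an inhibitor of E-proteins, rose by 1.52 (SE 0.05) in the knockout and was lower in the double knockout (-1.03, SE 0.05). The endoderm factors Foxa1 (1.99, SE 0.25) and Gata6 (1.91, SE 0.19) were higher in the double knockout than in the knockout. Klf4, a naive pluripotency factor, fell in the knockout (-0.69, SE 0.05) and the C91A mutant (-0.39, SE 0.05).

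Cell type markers moved with these groups, and their part in the results was not tested. The 12 stem cell markers summed to 4451 to 4628 CPM in the double knockout, 4203 to 4342 in the knockout, 4825 to 4914 in its untreated line, 3650 to 3709 in the C91A mutant, 4405 to 4659 in its untreated line and 4336 to 4540 in wild type. Of the 12, 2 rose and 8 fell in the knockout, 1 rose and 10 fell in the C91A mutant, and 7 were higher and 3 lower in the double knockout than in the knockout. The 17 fibroblast markers, 11 of them also in the mesenchymal list, summed to 268 to 290 CPM in the double knockout, 279 to 287 in the knockout, 188 to 196 in its untreated line, 249 to 262 in the C91A mutant, 173 to 189 in its untreated line and 215 to 231 in wild type. Of 15 tested, 9 rose and none fell in the knockout, where 61.6% of all genes were called, and 9 rose and 1 fell in the C91A mutant, where 55.0% were called. Fap was at 0 in the double knockout, the knockout and both untreated lines, and Lum at 0 in the double knockout.

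The 16 primitive endoderm markers, 2 of them also in the mesenchymal list, summed to 1591 to 1705 CPM in the double knockout, 1202 to 1258 in the knockout, 754 to 783 in its untreated line, 2996 to 3204 in the C91A mutant, 1840 to 1925 in its untreated line and 2082 to 2131 in wild type. Of 14 tested, 10 rose in the knockout, 7 rose and 2 fell in the C91A mutant, and 12 were higher in the double knockout than in the knockout. Against wild type 0 were higher and 10 lower in the knockout (median -0.88), and all 14 were lower in its untreated line (median -1.62). In the C91A mutant 5 were higher and 5 lower than in wild type (median -0.06), and in the double knockout 3 and 5 (median 0.02). The 12 neuroectoderm markers summed to 160 to 173 CPM in the double knockout, 202 to 218 in the knockout, 147 to 158 in its untreated line, 218 to 227 in the C91A mutant, 156 to 168 in its untreated line and 146 to 154 in wild type. The 11 mesoderm markers summed to at most 73.4 CPM in any library.

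Genes whose centred mean log2 CPM over the 6 groups lay nearest to a member were found for the 6 members with a range of at least 1 log2 unit, as a description. Nearest to Cdh2 (range 2.60) were Fbn2, Vgf and Fst, with root mean square differences of 0.192, 0.194 and 0.209. Nearest to Vim (range 2.26) were Prox1 (0.106), Adcy2 (0.163) and Zfp521 (0.184), and nearest to Snai2 (range 2.69) were Adcy2 (0.106), Nell2 (0.189) and Zfp521 (0.191). Fn1 had Tspyl2 (0.055), Gm6867 (0.058) and Commd9 (0.060) nearest. Zeb1 had Obi1 (0.163), Pik3r3 (0.171) and Mn1 (0.172), and Zeb2 had Shisa4 (0.063), Zfp750 (0.130) and Bin1 (0.136).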

How the data were processed

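Per the labels' protocols, RNA was sequenced from TruSeq version 2 libraries in single-end runs (read length 50 bases, planned depth 30 M reads a sample). Alignment was by GSNAP to GRCm38, per the submitters' processing notes, with no version named. The authors deposited, per sample and Entrez gene, a count and a normalized RPKM. Counts were tested as deposited. The deposited RPKM, which includes a size factor of theirs that the sources used here do not explain, served for levels between genes. Names came from RefSeq (31049 of 36528 genes).

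Genes passing filterByExpr (minimum count 10; 16875 genes) were TMM-scaled and entered edgeR's quasi-likelihood test (edgeR 4.0.16, R 4.3.3, limma 3.58.1), all 18 libraries in 1 fit with 1 mean per group, with Benjamini-Hochberg adjustment over all genes tested. Intervals are at 95%. The steps were tested on simulated data. Replicate pairs differed by more than sampling noise (chi-square per degree of freedom 1.74 to 5.41). Replicates were numbered in accession order and pair nothing. Alternatives were other scalings, no filter, DESeq2 1.42.0, a fit of only the groups compared, and leaving out each library.

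The members and lists were chosen with earlier results of these data known. Named genes are the members, up to 3 highest and 3 lowest called members of each pathway list (mean log2 CPM at least 0) in the 3 main comparisons, and the 3 genes (mean log2 CPM at least 2) nearest in pattern to a member. Further values of Acta2 and Tgfbr2 were added after they were seen. A gene that the rule names is not reported here.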

Additional observations from a re-analysis of the deposited data

Results flagged for a closer look

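The effect of the BAP1 knockout and that of the C91A mutation, each against its own untreated line, differed for 5 members in the interaction contrast of edgeR (adjusted over all genes tested), in which 25.9% of tested genes were called. The knockout minus C91A difference in log2 fold change was 0.81 for Cdh2 (adjusted p = 3.2e-05), 0.88 for Vim (adjusted p = 1.4e-11) and 0.39 for Fn1 (adjusted p = 1e-06). It was -0.17 for Cdh1 (adjusted p = 0.0096) and -0.17 for Epcam (adjusted p = 0.022), and these last 2 calls were lost without replicate 3 of the C91A mutant (-0.14 and -0.15). Against wild type, Cdh2 started at -0.15 in the untreated knockout line and 0.45 in the untreated C91A line. Line and allele cannot be told apart here. The Epcam call was also lost without replicate 1 of the knockout or replicate 3 of the untreated C91A line (-0.16 each).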

How the results depend on the processing

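Over the 9 comparisons, 1025 alternative values were computed for 81 member results, and 977 kept their direction and their side of the threshold. Of the other 48, 21 lost a call, 5 gained one and 22 changed sign, all 22 of results that were not called. Scaling by library totals alone put the median gene at -0.16 in the knockout against its untreated line (-0.01 with TMM), -0.11 in the C91A mutant against its untreated line (-0.01), 0.24 in the double knockout against the knockout (0.03), 0.10 in the double knockout against wild type (0.01) and -0.13 in the knockout against wild type (-0.01). All called genes then split into 3624 higher and 7023 lower (5283 and 5109 with TMM), 3617 and 5955 (4828 and 4452) and 8002 and 3142 (5500 and 5171) in the first 3 of these. Under that scaling Epcam stood at -0.06 in the C91A mutant, Zeb1 at 0.04 in the untreated knockout line against wild type and Snai1 at 0.02 in the untreated C91A line against wild type. Zeb1 in the untreated knockout line was at 0.00 with no filter, with DESeq2 and with only the groups compared in the fit. The members called for the difference of the 2 effects numbered 5, and 3 to 5 without 1 library. Leaving out 1 library gave -0.09 to 0.15 for Snai1 in the knockout, -0.21 to 0.03 for Snai1 in the C91A mutant, -0.07 to 0.06 for Zeb1 in the untreated knockout line against wild type, and -0.11 to 0.13 for Snai1 and -0.36 to 0.18 for Snai2 in the untreated C91A line against wild type. For the difference of the 2 effects it gave -0.04 to 0.22 for Snai1, -0.10 to 0.35 for Zeb2 and -0.15 to 0.60 for Snai2. Without replicate 1 of the untreated knockout line, Zeb2 was called there against wild type (0.77), and Vim was called in the untreated C91A line under library totals alone (0.18) and without replicate 2 (0.20) or 3 (0.18) of that line. The causes were not tested. No paired analysis was possible because the labels number no replicates. Depth limits Snai2 most, with 6 to 58 counts a library.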

Other observations

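SNAI and ZEB proteins repress through chromatin partners, and 12 such genes moved both ways: 4 rose and 5 fell in the BAP1 knockout, 5 rose and 3 fell in the C91A mutant, and 3 were higher and 5 lower in the double knockout than in the knockout. The direction depended on the scaling, since library totals alone gave 4 and 7, 2 and 6, and 7 and 1. Ezh2, the methyltransferase of Polycomb repressive complex 2, stood at 0.52 (SE 0.05) in the knockout, and Suz12, of the same complex, at -0.51 (SE 0.06). In the double knockout against the knockout Ezh2 stood at -0.44 (SE 0.05) and Suz12 at 0.71 (SE 0.06).

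The miR-200 family and miR-205 are microRNAs that hold ZEB transcripts down in epithelia. None of 6 entries, 5 microRNA genes and the miR-205 host gene Mir205hg, passed the filter on low counts, and together they summed to 0 to 0.407 CPM per library, so no change of theirs was detectable at this depth in polyadenylated RNA.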
